A study of Mus musculus with 3 samples.

Results

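The intergenic distal sites described here are stretches of the mouse genome, away from annotated transcript starts and outside protein-coding genes, at which a peak of RNA polymerase II (RNAP2) overlapped a peak of Med12 in the E12.5 distal forelimb. They were chosen from the deposited peak lists: a site is an RNAP2 peak narrower than 4000 bp that overlaps a Med12 peak by at least 1 bp, lies outside 1 kb on each side of every annotated start (GENCODE vM1, mm9) and overlaps no protein-coding gene span. Of 20479 RNAP2 peaks, 20075 were narrower than 4000 bp, 4279 of these overlapped a Med12 peak, 2639 of these lay outside the promoter intervals, and 1461 of these were intergenic. The 1461 sites are the subject of the text. Presence in both lists chose them, so their peak scores are given as a description.

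RNAP2 and Med12 were immunoprecipitated from cross-linked cells of dissected mouse distal forelimbs at E12.5, each giving a single library, and the signal of the input library was not analysed here. The labels give neither genotype nor strain, no treatment, and not how many embryos a library holds. The Med12 list held 10634 peaks. There was no replicate, so no difference below was tested. Ranges in parentheses after a share are 95% Wilson intervals, which cover counting error alone and treat neighbouring sites as independent. The deposited lists give no read counts, so the depth at a site is unknown. The tissue was checked against the starts of limb mesenchyme genes: Prrx1, Msx1, Msx2, Twist1, Hoxd13, Hoxd12, Tbx2, Tbx3, Shox2 and the forelimb gene Tbx5 each had an RNAP2 peak within 1 kb, as did the hindlimb gene Pitx1 with a score of 99.4, while the hindlimb gene Tbx4 had none. Hoxd13 and Hoxd12 had the same score of 1854.76. Of all protein-coding genes, 41.9% had an RNAP2 peak within 1 kb of a start.

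Mediator is a large complex that links transcription factors bound at enhancers to RNAP2 at promoters, and Med12 belongs to its kinase module. Enhancers of developmental genes often lie far from the gene they act on, and many sit in gene deserts, long stretches without a protein-coding gene. In the limb bud, deserts on either side of genes for patterning factors are known to hold enhancers, and the desert beside the HoxD cluster is a well known case. A peak of RNAP2 and Med12 does not by itself show that a sequence acts as an enhancer or name its target gene.

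The sequences below are 300 bases of the mm9 forward strand at the centre of the overlap of both peaks, 5′ to 3′. They are shown for the site with the highest Med12 score in 5 of the 6 intergenic intervals that held most sites (the first 5 lines; that between Zfp608 and Gramd3 is not shown, and the one between Slc4a3 and Epha4 tied with 2 others at 9 sites) and for the 4 sites with the highest Med12 scores of all (the last 4 lines), each named by its flanking protein-coding genes. Capitals mark matches, on either strand, to 11 short motifs that are spelled out with the motif counts. A match is a run of letters and not a measured binding site.
Psmd7-Zfhx3 chr8:111196084-111196383: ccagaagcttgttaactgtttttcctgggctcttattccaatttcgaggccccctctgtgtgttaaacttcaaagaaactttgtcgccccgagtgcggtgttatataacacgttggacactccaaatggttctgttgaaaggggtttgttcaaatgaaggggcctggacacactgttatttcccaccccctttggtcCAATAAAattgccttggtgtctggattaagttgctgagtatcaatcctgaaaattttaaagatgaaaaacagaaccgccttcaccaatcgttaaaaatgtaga
Atp5g3-Lnp chr2:73913178-73913477: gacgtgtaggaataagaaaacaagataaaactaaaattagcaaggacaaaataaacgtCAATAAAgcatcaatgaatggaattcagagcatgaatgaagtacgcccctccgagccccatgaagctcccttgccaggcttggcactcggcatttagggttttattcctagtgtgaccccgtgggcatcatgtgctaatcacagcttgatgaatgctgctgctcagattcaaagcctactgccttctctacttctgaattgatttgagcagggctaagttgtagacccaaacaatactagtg
Mki67-Mgmt chr7:143534120-143534419: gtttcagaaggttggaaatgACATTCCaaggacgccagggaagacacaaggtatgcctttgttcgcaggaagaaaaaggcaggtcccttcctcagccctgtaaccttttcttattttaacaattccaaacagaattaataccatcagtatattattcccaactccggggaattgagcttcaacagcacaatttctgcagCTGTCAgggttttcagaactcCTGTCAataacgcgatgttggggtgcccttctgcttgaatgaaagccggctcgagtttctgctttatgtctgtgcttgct
Cd83-Jarid2 chr13:43913843-43914142: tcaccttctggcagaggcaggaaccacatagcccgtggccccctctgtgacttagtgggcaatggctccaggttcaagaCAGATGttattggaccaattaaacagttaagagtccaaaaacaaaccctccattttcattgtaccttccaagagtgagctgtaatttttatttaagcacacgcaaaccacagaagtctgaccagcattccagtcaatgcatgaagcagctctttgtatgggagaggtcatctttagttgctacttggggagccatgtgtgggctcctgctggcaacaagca
Slc4a3-Epha4 chr1:76892985-76893284: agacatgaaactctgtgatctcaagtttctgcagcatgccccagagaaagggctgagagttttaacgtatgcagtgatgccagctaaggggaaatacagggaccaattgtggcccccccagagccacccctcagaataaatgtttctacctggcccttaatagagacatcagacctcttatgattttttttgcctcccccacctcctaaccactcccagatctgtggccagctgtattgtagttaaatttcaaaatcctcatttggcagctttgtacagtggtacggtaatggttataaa
Nox3-Arid1b chr17:4626254-4626553: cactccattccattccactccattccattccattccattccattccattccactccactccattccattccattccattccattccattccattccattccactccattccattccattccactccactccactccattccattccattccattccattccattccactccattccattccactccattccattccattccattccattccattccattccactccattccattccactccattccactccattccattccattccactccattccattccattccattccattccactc
Ets2-Psmg1 chr16:96069952-96070251: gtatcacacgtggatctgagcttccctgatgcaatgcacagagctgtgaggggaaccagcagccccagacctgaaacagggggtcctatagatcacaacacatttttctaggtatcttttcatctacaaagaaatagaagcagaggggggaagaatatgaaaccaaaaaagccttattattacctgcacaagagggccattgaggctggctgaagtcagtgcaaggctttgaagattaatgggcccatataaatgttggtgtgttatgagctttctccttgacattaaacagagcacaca
Lpar1-Olfr267 chr4:58683468-58683767: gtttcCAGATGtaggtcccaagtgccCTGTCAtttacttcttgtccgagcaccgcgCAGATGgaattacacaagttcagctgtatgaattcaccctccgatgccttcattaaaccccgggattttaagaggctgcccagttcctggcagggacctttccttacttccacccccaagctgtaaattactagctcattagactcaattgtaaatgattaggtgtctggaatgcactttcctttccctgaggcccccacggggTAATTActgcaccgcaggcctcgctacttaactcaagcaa
Boc-BC027231 chr16:44666138-44666437: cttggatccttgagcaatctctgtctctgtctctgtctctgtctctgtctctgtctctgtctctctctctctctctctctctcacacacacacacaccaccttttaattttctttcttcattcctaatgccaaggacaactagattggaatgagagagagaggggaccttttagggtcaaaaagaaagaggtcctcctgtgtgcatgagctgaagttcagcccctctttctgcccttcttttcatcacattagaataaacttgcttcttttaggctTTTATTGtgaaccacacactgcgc

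The sequence between Nox3 and Arid1b, at the site with the highest Med12 score, was a tandem repeat. It held the letters CCATT 45 times in 300 bases, and 92.5% of its bases equalled the base 5 positions before. The Boc to BC027231 sequence held a stretch with a 6-base period, and over its 300 bases 46.9% of bases equalled the base 6 positions before. The other 7 sequences had no such period, with at most 37.8% of bases equal at any period of 1 to 10 bases. HOX13-type letters stood in the sequences between Psmd7 and Zfhx3, between Atp5g3 and Lnp and between Boc and BC027231, and the homeodomain core stood once in that between Lpar1 and Olfr267.

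The RNAP2 score of the sites, 10 times the negative log10 of the p-value of the peak caller, ran from 40.01 to 3100 with a median of 134 and quartiles of 75.8 and 267. The Med12 score of the overlapping peak ran from 40.1 to 3100 with a median of 96.5 and quartiles of 63.7 and 156. Scores depend on the depth of each library and were compared only within a list. The median RNAP2 score was 137 at the 1178 intragenic distal peaks with Med12, 66.9 at the 2515 intergenic distal RNAP2 peaks without Med12, and 647 at the 1640 RNAP2 peaks with Med12 at annotated starts. The 3486 intergenic distal Med12 peaks without RNAP2 had a median Med12 score of 50.5, and the intragenic distal peaks with Med12 had one of 84.5 (95% interval of the median, 80.9 to 89.6), below the 96.5 (91.3 to 102) of the sites. The sites had an RNAP2 median close to that of intragenic distal peaks with Med12, and medians above those of intergenic peaks found in 1 list. Presence in both lists chose the sites, so the order against peaks found in 1 list is a description and was not tested.

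Both peaks of a site lay nearly on top of each other. The median RNAP2 peak was 1294 bp wide and the median Med12 peak 1105 bp, with a median overlap of 1024 bp and a median of 113 bp between their centres. At 668 sites (45.7%) the Med12 peak lay wholly within the RNAP2 peak, and at 131 sites (8.97%) the RNAP2 peak lay within the Med12 peak. At 24 sites (1.64%) more than 1 Med12 peak was overlapped. Both scores were at least 50 at 1195 sites (81.8%) and at least 100 at 551 sites (37.7%). Across the 1461 sites, Spearman's rho between the RNAP2 and Med12 scores was 0.448, a description of sites that share 2 libraries and, within each, a peak caller.

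**Figure D1:**
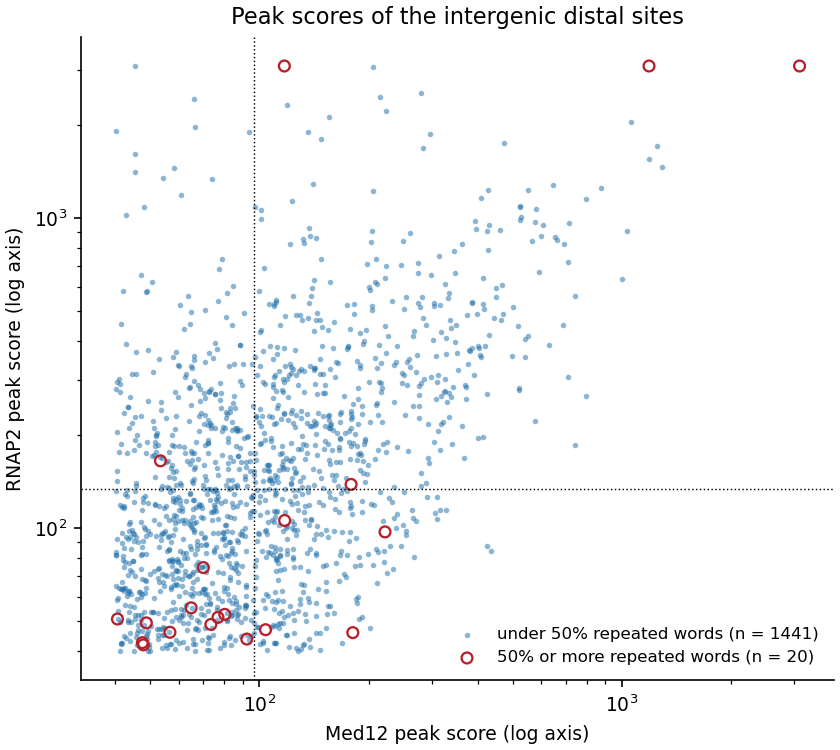
Each point is 1 of the 1461 sites, with its Med12 peak score on the horizontal log axis and its RNAP2 peak score on the vertical log axis, and dotted lines mark the medians of 96.5 and 134. Red circles are the 20 sites of which at least 50% of the 32-base words occur more than once in the genome, and 3 of them lie at the top edge, at an RNAP2 score of 3100.

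Close to each limit of the rule, the widest site had 3652 bp, on chromosome 8 from 42632047 to 42635698, and the narrowest peak left out for its width alone had 4036 bp, on chromosome 1 from 165343666 to 165347701, 1 of 9 such peaks. The smallest overlap of a site was 7 bp, on chromosome 2 from 51622847 to 51623828. The nearest miss was an intergenic RNAP2 peak on chromosome 2 from 50826296 to 50827409, which ended 14 bp from a Med12 peak, and 36 intergenic RNAP2 peaks without Med12 had a Med12 peak within 500 bp. The site closest to an annotated start was 1023 bp from it, on chromosome 2 from 84582358 to 84584667. The peak left out at the largest distance was 941 bp from a start, on chromosome 3 from 5088338 to 5089335. The site closest to a protein-coding span was 46 bp from it, on chromosome 4 from 129378334 to 129380361.

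Of all RNAP2 peaks, 4435 (21.7%) overlapped a Med12 peak. The 1461 sites were 36.7% (35.3 to 38.3) of the 3976 narrow intergenic distal RNAP2 peaks, compared with 17.9% (17.0 to 18.9) of the 6563 intragenic distal peaks and 17.2% (16.5 to 18) of the 9536 narrow peaks at annotated starts. Within a class of RNAP2 score, the intergenic share was also the larger up to a score of 500. Among peaks with a score of 40 to 50 it was 15.4% (13.1 to 18.1), against 5.72% (4.67 to 6.99) of intragenic peaks. Among those of 200 to 500 it was 65.0% (60.9 to 68.8), against 45.9% (42.1 to 49.7). From 500 to 1000 the shares were 68.8% (60.8 to 75.8) and 69.5% (61.1 to 76.8). At scores of 1000 and above they were 60.5% (49.3 to 70.8) and 71.9% (54.6 to 84.4), and in both of these classes the intervals overlapped.

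The highest Med12 scores were at the following sites. The site between Nox3 and Arid1b, which encodes a subunit of a chromatin remodelling complex, had a score of 3100 in both lists and lay 368.5 kb from the start of Arid1b, on chromosome 17 from 4625625 to 4627084. This was the highest score of the Med12 list. In the RNAP2 list, where scores reached 3217, 311 peaks were tied at 3100, and 4 of these were sites. The site between Ets2, a transcription factor gene, and Psmg1, on chromosome 16 from 96068841 to 96071105, had a Med12 score of 1293 and an RNAP2 score of 1459, and lay 142.2 kb from the start of Ets2. The site between Lpar1, which encodes a receptor for lysophosphatidic acid, and the odorant receptor gene Olfr267, on chromosome 4 from 58682718 to 58684570, had scores of 1254 and 1716. None of these 3 was closer than 115.0 kb to a coding start.

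Next came the site between Boc, which encodes a co-receptor of Hedgehog signalling, and BC027231, on chromosome 16 from 44665126 to 44667477, with a Med12 score of 1193 and an RNAP2 score of 1552. The site between Olfr1505 and Tle4, which encodes a transcriptional corepressor, on chromosome 19 from 14361068 to 14362926, had 1190 and 3100. The site between Ebf1, a transcription factor gene, and Clint1, on chromosome 11 from 45202077 to 45204003, had 1063 and 2051. These sites lay 58.1 kb, 166.3 kb and 462.6 kb from a coding start.

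The other 4 of the 10 highest had Med12 scores of 1035 between Gm8882 and Prh1, 1000.7 between Ly75 and Pla2r1, 876 between Gm16484 and Nedd1 and 798 between Bcl11a, a transcription factor gene, and 5730522E02Rik. Their RNAP2 scores were 912, 637, 1253 and 267. The site between Ly75 and Pla2r1 was the closest of the 10 to a coding start, at 19.6 kb, and that between Bcl11a and 5730522E02Rik was the farthest, at 670.4 kb.

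Repeated sequence was found at several of these sites. The share of 32-base words that occur more than once in the genome was at least 10% at 6 of the 10 sites with the highest Med12 scores and at 81 of all 1461 sites (5.54%). It was 70.6% at the Nox3 to Arid1b site and 73.4% at the Olfr1505 to Tle4 site, 33.7%, 31.1% and 26.9% at the sites beside Prh1, Pla2r1 and Bcl11a, and 12.4% at that between Boc and BC027231. Whether reads from other copies add to these scores was not tested. The sites between Ets2 and Psmg1, Lpar1 and Olfr267, Ebf1 and Clint1, and Gm16484 and Nedd1 held no repeated word. Across the sets, 10% or more repeated words were found in 9.90% of intergenic RNAP2 peaks without Med12 and in 17.1% of intergenic Med12 peaks without RNAP2.

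The sites with the highest RNAP2 scores were mostly other sites. Only 2 sites, those between Nox3 and Arid1b and between Olfr1505 and Tle4, were among the 10 highest in both lists. The site between Slc22a13 and Oxsr1 also reached the score of 3100 but had a Med12 score of 117, and 51.0% of its words were repeated. The site between Eif4g2, which encodes a translation initiation factor, and Galntl4, on chromosome 7 from 118265215 to 118267016, had an RNAP2 score of 3100 and a Med12 score of 45.4. The sites on either side of Rpl30-ps6 on chromosome 1 had RNAP2 scores of 3067, towards Nmur1, and 2544, towards Ptma, with Med12 scores of 206 and 279.

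The remaining 4 of the 10 highest RNAP2 scores were 2455 between Nanos3 and Zswim4, 2419 between Nr5a2 and A130050O07Rik, 2319 between Prr14 and Fbrs, and 2216 between Rpl34 and Lef1, which encodes a nuclear effector of Wnt signalling. The last of these lay 4.3 kb from a start of Lef1, and the one between Prr14 and Fbrs lay 6.8 kb from a start, in an interval of 8.5 kb. Of the 10 sites with the highest RNAP2 scores, 6 held at least 25 CpG dinucleotides in 500 bp, compared with none of the 10 with the highest Med12 scores. CpG dinucleotides are dense at many promoters, and a start that the annotation lacks cannot be told apart from a distal site here.

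In all, 65 sites (4.45%) held at least 25 CpG in 500 bp. The limit was chosen after the values were seen. These sites had a median RNAP2 score of 327, a median Med12 score of 79.2 and a median distance of 19.1 kb to the nearest coding start, and 6 of them, 9.23% (4.30 to 18.7), lay in a gene desert. The other 1396 sites had medians of 130.4, 97.1 and 114 kb, and 609 of them, 43.6% (41.0 to 46.2), lay in a desert. CpG-dense windows made up 10.4% of intergenic RNAP2 peaks without Med12, 0.344% of intergenic Med12 peaks without RNAP2 and 0.486% of the intergenic windows of chromosome 19.

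The sites lay far from genes, at about the distance of intergenic sequence itself. The median distance from the centre of a site to the nearest protein-coding start was 105 kb, with quartiles of 37.2 and 242 kb and a range of 1.57 to 1385 kb. Intergenic positions 10 kb apart had a median of 101 kb and quartiles of 27.4 and 311 kb. The median was 55.8 kb for intergenic RNAP2 peaks without Med12, 131 kb for intergenic Med12 peaks without RNAP2 and 44.6 kb for intragenic distal peaks with Med12. Sites were thus farther from genes than RNAP2 peaks without Med12 and nearer than Med12 peaks without RNAP2.

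Sites were fewer than intergenic positions at both ends of the range of distances. Within 10 kb of a coding start lay 110 sites, 7.53% (6.28 to 9.0), compared with 11.6% of intergenic positions and 17.1% (15.6 to 18.6) of RNAP2 peaks without Med12. The rule left out peaks within 1 kb of an annotated start, but the positions include that sequence. The rule itself thus lowers the share of sites against positions under 10 kb, whereas the RNAP2 peaks without Med12 met the same limit. Between 100 and 500 kb lay 672 sites, 46.0% (43.5 to 48.6), compared with 35.1% of positions and 30.8% (29.0 to 32.6) of RNAP2 peaks without Med12. From 500 kb to 1 Mb lay 79 sites, 5.41% (4.36 to 6.69), and beyond 1 Mb 9 sites, 0.616% (0.324 to 1.17), compared with 10.6% and 4.38% of positions.

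**Figure D2:**
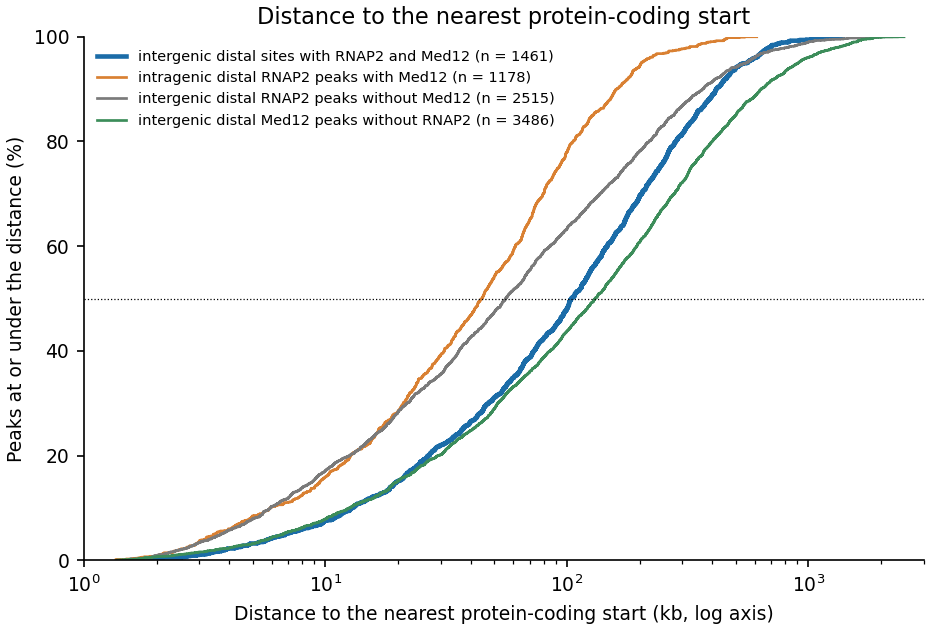
Cumulative share of peaks (vertical axis, in percent) by distance to the nearest protein-coding start (horizontal log axis, in kb) for the sites and the 3 sets set beside them. The line of the sites crosses 50% at 105 kb, between those of intergenic RNAP2 peaks without Med12, at 55.8 kb, and intergenic Med12 peaks without RNAP2, at 131 kb.

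The farthest site from any protein-coding start lay between the cadherin genes Cdh6 and Cdh9, on chromosome 15 from 15321610 to 15322947. It was 1385.4 kb from the start of Cdh9, with an RNAP2 score of 50.5 and a Med12 score of 124. Of the 5 farthest sites, 3 lay in 1 interval of 2976.4 kb on chromosome 8 between Gm1840 and Efnb2, which encodes an ephrin ligand, at 1316.0, 1314.9 and 1198.9 kb from a start. Their Med12 scores were 464, 108 and 65.3. The remaining one lay 1236.8 kb from the start of Nxph1, on chromosome 6 from 10135847 to 10136963, with a Med12 score of 553, an RNAP2 score of 417 and 25.4% repeated words.

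A gene desert was taken as an interval of at least 500 kb between neighbouring protein-coding spans. The genome had 19791 intergenic intervals with 1581 Mb in all, of which 651 were deserts that held 744 Mb, 47.0% of the sequence. In deserts lay 615 of the 1461 sites, 42.1% (39.6 to 44.6). The share was 33.1% (31.3 to 35.0) for intergenic RNAP2 peaks without Med12 and 53.1% (51.4 to 54.7) for intergenic Med12 peaks without RNAP2. At this length, the share of sites was below that of sequence and between those of both sets of peaks found in 1 list. The order against sequence depended on the length taken for a desert. With 250 kb, deserts held 62.2% (59.7 to 64.7) of sites and 61.3% of the sequence, within that interval, and with 1 Mb they held 277 sites (17 to 21%) and 29.9% of the sequence.

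The density of sites was highest in intervals of middle length. It was 0.626 sites per Mb in intervals under 50 kb, 1.163 from 100 to 250 kb, 1.305 from 250 to 500 kb and 1.250 from 500 to 1000 kb, and it was 0.788 from 1 to 2 Mb and 0.294 above 2 Mb. Intergenic Med12 peaks without RNAP2 differed from this in the longest intervals, with 2.376 and 2.261 per Mb in the last 2 classes. Intergenic RNAP2 peaks without Med12 were also sparse there, with 1.000 and 0.541 per Mb, but were densest in intervals under 50 kb, with 2.343 per Mb. Of intervals under 50 kb, 0.872% held a site, and of those above 2 Mb 45.6% did. In all, 872 intervals (4.41%) and 257 deserts (39.5%) held a site.

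**Figure D3:**
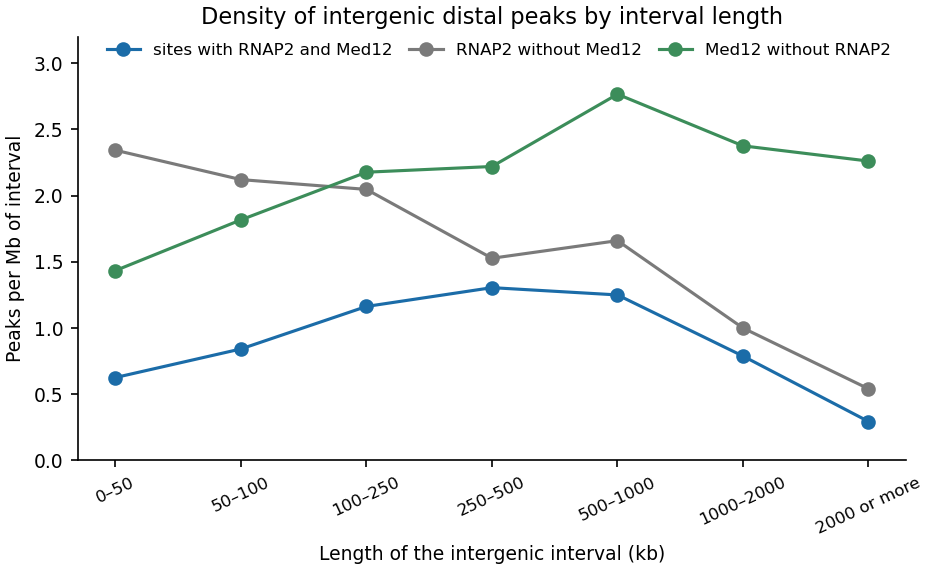
Peaks per Mb of intergenic sequence (vertical axis) by length of the interval between protein-coding genes (horizontal axis, in kb) for the sites, intergenic RNAP2 peaks without Med12 and intergenic Med12 peaks without RNAP2. The line of the sites is highest, at 1.305 per Mb, in intervals of 250 to 500 kb and falls to 0.294 per Mb in intervals of 2 Mb or more.

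Within deserts, sites were spread over the whole length. The outer parts of a desert, up to 25% of its length from either gene, held 302 of 615 sites, 49.1% (45.2 to 53.1), and by construction 50% of the sequence. The median distance of a desert site to the nearer gene span was 238 kb, with quartiles of 134 and 373 kb. Of the RNAP2 peaks without Med12 in deserts, 55.1% (51.7 to 58.4) lay in the outer parts.

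Most intervals with a site had 1 or 2. At least 2 sites were found in 277 intervals, at least 3 in 135 and at least 5 in 33, and the 135 intervals held 582 sites (39.8%). The longest intervals were not those with most sites. The 5 longest with a site had 3991 kb between 4930555F03Rik and Aga, 3801 kb between Nudt12 and Efna5, 3697 kb between Zeb2 and Acvr2a, 3679 kb between Pcdh7 and G6pd2 and 3619 kb between D3Ertd751e and Pcdh10, and held 1, 2, 3, 1 and 3 sites.

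The interval with most sites lay between Psmd7, which encodes a proteasome subunit, and the homeobox gene Zfhx3 on chromosome 8, from 110112383 to 111238543. It held 14 sites in 1126 kb. Their RNAP2 scores ran from 44.6 to 720.2 with a median of 114, and their Med12 scores from 41.7 to 711 with a median of 115. The site with the highest Med12 score, shown above, lay 41.3 kb from the span of Zfhx3, and the start of Psmd7 was the nearest coding start for 12 of the 14 sites.

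Between Zfp608, a zinc finger gene, and Gramd3 on chromosome 18, from 55152246 to 56559990, 12 sites lay in 1408 kb. Their Med12 scores ran from 56.9 to 541 with a median of 114, and the site with the score of 541 lay 769.5 kb from the span of Zfp608 and 635.9 kb from that of Gramd3. A further 7 sites lay on the other side of Zfp608, so 19 sites flanked this gene, the most of any protein-coding gene.

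Between Atp5g3 and Lnp on chromosome 2, from 73749384 to 74358347, 12 sites lay in 609 kb. This is the desert beyond the HoxD cluster that is known for its digit enhancers. It held 36 further Med12 peaks without RNAP2 and 8 RNAP2 peaks without Med12, the most Med12 peaks without RNAP2 of the 10 intervals with most sites. In all, 14 sites lay between Atp5g3 and Hoxd13, and 6 lay between Hoxa13 and Tax1bp1, beside the HoxA cluster.

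Between Mki67, the gene of a proliferation marker, and the DNA repair gene Mgmt on chromosome 7, 10 sites lay in 1178 kb, with Med12 scores of 49.0 to 579 and RNAP2 scores of 45.5 to 1074. None was closer than 286.6 kb to the start of either gene. Between Cd83 and Jarid2, which encodes a cofactor of the Polycomb complex, 10 sites lay in 926 kb on chromosome 13, with Med12 scores of 44.9 to 337. The site with the highest Med12 score lay 14.8 kb from the span of Cd83 and 33.4 kb from its start.

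The next intervals held 9 or 8 sites. Between Slc4a3 and Epha4, the gene of an ephrin receptor, 9 sites lay in 1805 kb on chromosome 1, with a highest Med12 score of 371. Between Rps24 and Zmiz1, which encodes a transcriptional coactivator, 9 sites lay in 963 kb on chromosome 14, with a highest Med12 score of 321. Between B130024G19Rik and Gm10295 on chromosome 7, 9 sites lay in 960 kb, and none had an RNAP2 score above 97.5. Between Ebf1 and Clint1, the 8 sites in 844 kb had a median RNAP2 score of 269 and a median Med12 score of 204, the highest medians of the 10 intervals. Between 2610203C20Rik and the sorting receptor gene Sorl1 on chromosome 9, 8 sites lay in 372 kb, 21.5 per Mb, with all 8 within 186 kb.

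**Figure D4:**
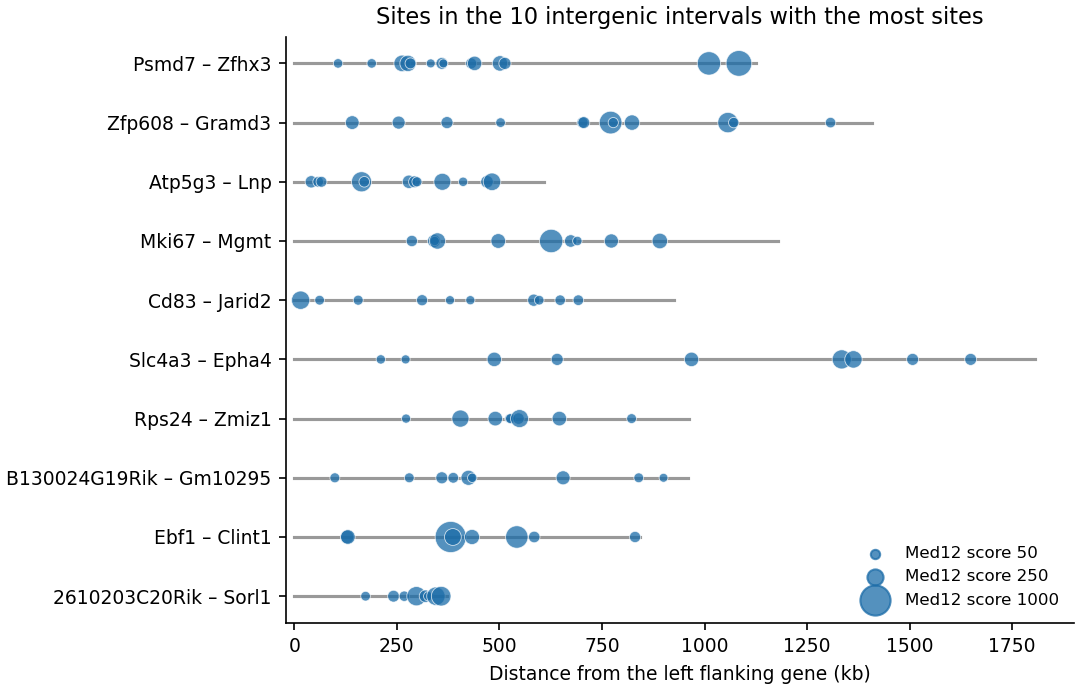
Each row is 1 of the 10 intergenic intervals with most sites, drawn as a line from its left to its right flanking gene on a horizontal axis in kb, and each circle is a site, with an area that grows with its Med12 score. Sites span 979 kb of the 1126 kb between Psmd7 and Zfhx3, whereas the 8 sites between 2610203C20Rik and Sorl1 lie within 186 kb.

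Few sites had another site close by. Within a little over 12 kb, edge to edge, 228 of 1461 sites had a neighbour, 15.6% (13.8 to 17.6), compared with 10.1% (9.11 to 11.1) of intergenic Med12 peaks without RNAP2, 16.9% (15.5 to 18.5) of intergenic RNAP2 peaks without Med12 and 18.9% (16.8 to 21.3) of intragenic distal peaks with Med12. These made 106 groups of at least 2 sites and 13 of at least 3. The largest group had 5 sites in 23.9 kb between 9430076C15Rik and Creb5, a transcription factor gene, on chromosome 6 from 53398000 to 53421894, 102.2 kb from a start of Creb5. Its RNAP2 scores ran from 83.5 to 856 and its Med12 scores from 57.7 to 132. The only group of 4 lay in 24.8 kb on chromosome 13 between Zcchc6 and Gas1, which encodes a Hedgehog co-receptor, 157.2 kb from the start of Gas1, with Med12 scores of 75 to 443.

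Sites were unevenly spread over the chromosomes. Chromosome 13 had the most, 114, or 1.491 per intergenic Mb, followed in density by chromosome 18 with 1.391 and chromosome 8 with 1.274. Among the other autosomes the density ran from 0.696 on chromosome 17 to 1.086 on chromosome 6. Chromosome X had 14 sites, 0.118 per Mb, and 6 of these 14 had at least 50% repeated words, while chromosome Y had none.

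Intervals between convergent genes held a larger share of sites than of intergenic sequence, and those between genes on the same strand a smaller one. Of the 1459 sites between 2 genes, 375 (25.7%, 23.5 to 28.0) lay between divergent genes, 699 (47.9%, 45.4 to 50.5) between genes on the same strand and 385 (26.4%, 24.2 to 28.7) between convergent genes. These classes held 26.6%, 51.6% and 21.8% of the sequence, so only the interval of the divergent class included the share of sequence. The convergent share was 24.9% (23.3 to 26.7) for intergenic RNAP2 peaks without Med12. For intergenic Med12 peaks without RNAP2 it was 23.6%, so a convergent share above that of sequence was not particular to the sites. The same-strand shares of these sets were 52.4% and 52.2%, not below that of sequence. The nearest gene edge was a 5′ end for 47.6% (45.0 to 50.1) of sites and over 52.4% of the sequence, which also lay outside the interval. This 5′ share was 47.9% for intergenic RNAP2 peaks without Med12, close to that of the sites, and 50.8% for intergenic Med12 peaks without RNAP2. Noncoding gene spans overlapped 51 sites (3.49%), of which 26 overlapped lincRNAs, 25 processed transcripts and 1 a polymorphic pseudogene beside Slc22a13, with 1 site in more than 1 class, compared with 5.77% of RNAP2 peaks without Med12.

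Genes next to sites more often had RNAP2 at their own start than genes in general. Of all 22225 protein-coding genes, 9318 (41.9%) had an RNAP2 peak and 2002 (9.01%) a Med12 peak within 1 kb of a start. Of the 1603 genes that flanked the 1459 sites between 2 genes, 865 had RNAP2, 54.0% (51.5 to 56.4), and 246 had Med12, 15.3% (13.7 to 17.2). The shares were 52.4% (50.6 to 54.2) and 13.3% (12.1 to 14.6) for genes flanking RNAP2 peaks without Med12, and 43.8% (42.1 to 45.6) and 10.3% (9.33 to 11.5) for genes flanking Med12 peaks without RNAP2. Both flanking genes had RNAP2 at 509 sites (34.9%), 1 of them at 680 (46.6%) and neither at 270 (18.5%).

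The same held among genes that border a desert. Of 1166 such genes, 488 (41.9%) bordered a desert with a site, and 263 of these, 53.9% (49.5 to 58.3), had RNAP2 and 81, 16.6% (13.6 to 20.2), Med12 at a start. Of the 678 genes that bordered only deserts without a site, 215, 31.7% (28.3 to 35.3), had RNAP2 and 39, 5.75% (4.24 to 7.77), Med12. The start nearest to a site was that of a flanking gene for 1440 sites (98.6%), and it had RNAP2 for 858 sites (58.7%, 56.2 to 61.2). The nearest start had RNAP2 for 57.0% (55.0 to 58.9) of intergenic RNAP2 peaks without Med12, an interval that overlapped that of the sites. For intergenic Med12 peaks without RNAP2 it was 46.8% (45.2 to 48.5).

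Genes that pattern the limb often flanked a site. Of all protein-coding genes, 1605 (7.22%) flanked at least 1 site. Of 57 limb patterning transcription factors in the annotation, 28 did, 49.1% (36.6 to 61.7), and of 52 limb signalling genes 25 did, 48.1% (35.1 to 61.3). Of 30 cartilage and skeletal genes 11 did, 36.7% (21.9 to 54.5). These shares were not matched for interval length. Long intervals more often held a site, and 28.1% (18.1 to 40.8) of the limb transcription factors bordered a desert, compared with 5.25% of all protein-coding genes. How often genes of these lists flanked peaks found in 1 list is not given here, so the shares are not shown to be particular to the sites. With a score of at least 100 in both lists, 17 limb transcription factors flanked a site, 29.8% (19.5 to 42.7), as did 9 limb signalling genes, 17.3% (9.38 to 29.7), and 5 cartilage and skeletal genes, 16.7% (7.34 to 33.6), compared with 3.30% of all protein-coding genes. Without a score limit, the 64 such genes lay next to 139 sites (9.51%), so most sites were next to genes of none of these lists.

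Genes of the lists for other cell types flanked sites as well. Of 20 muscle markers 1 did (Pax3; 0.888 to 23.6%), and of 20 liver genes none did (up to 16.1%). Of 15 ectoderm markers 3 did (Trp63, Grhl2 and Epcam; 7.05 to 45.2%), and of 24 neuronal genes 4 did (Slc17a6, Pou3f2, Eomes and Stmn2), 16.7% (6.68 to 35.9). Of 21 endothelial and blood markers 3 did (Cdh5, Erg, which is also a cartilage list gene, and Ptprc), 14.3% (4.98 to 34.6). Apart from the liver list, the intervals of these lists overlapped that of the cartilage and skeletal genes, that of the ectoderm list overlapped those of all 3 limb and skeletal lists, and the differences between lists were not tested. RNAP2 lay at a start of 80.7% (68.7 to 88.9) of the limb transcription factors, 73.1% (59.7 to 83.2) of the limb signalling genes and 56.7% (39.2 to 72.6) of the cartilage and skeletal genes. It lay at a start of 6 of the muscle, 1 of the ectoderm, 5 of the endothelial and blood, 11 of the neuronal and 2 of the liver genes. The part that such cells had in the sites was not tested. The lists were chosen with earlier results of these data known.

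Of all protein-coding genes, 1166 (5.25%) bordered a desert, compared with 16 of 57 limb transcription factors, 13 of 52 limb signalling genes, 6 of 30 cartilage and skeletal genes and 5 of 24 neuronal genes. For 12 of the 16 limb transcription factors (50.5 to 89.8%) a desert held a site, compared with the 41.9% of all genes that border deserts. For limb signalling genes it was 9 of 13, 69.2% (42.4 to 87.3). For cartilage and skeletal genes it was 4 of 6, 66.7%, with an interval of 30 to 90.3% that included the share of all such genes, and for neuronal genes it was 2 of 5. By nearest coding start alone, 18 limb transcription factors, 31.6% (21.0 to 44.5), 19 limb signalling genes, 36.5% (24.8 to 50.1), and 6 of 30 cartilage and skeletal genes had a site, compared with 951 (4.28%) of all protein-coding genes.

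Among the transcription factors, Tbx18, a T-box gene, had 7 sites in its flanking intervals, at 134.3 to 337.7 kb from its start. Gli3, which encodes a nuclear effector of Hedgehog signalling, had 5 at 249.9 to 627.2 kb, and Osr1, a zinc finger gene of limb connective tissue, had 5 at 176.8 to 312.8 kb. Irx3, an Iroquois homeobox gene, had 5 at 121.8 to 485.7 kb, although no RNAP2 peak lay at its own start. Msx1, a homeobox gene of distal mesenchyme, had 4 at 71.2 to 178.4 kb. Tbx3 had 3 at 99.6 to 726.0 kb, and Zeb2 had 3, of which the nearest lay at 110.1 kb and the other two at 3480.6 and 3484.7 kb, near the far end of the interval at Acvr2a.

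Among the signalling genes, Epha4 had 10 sites at 212.7 to 1742.0 kb. Bmp2, which encodes a ligand of BMP signalling, had 6 at 114.6 to 662.8 kb, and the one with the highest Med12 score, 428, had an RNAP2 score of 1229. Sfrp2, the gene of a secreted Wnt modulator, had 6 at 18.5 to 478.0 kb. Hhip, whose product binds Hedgehog ligands, had 5 at 132.5 to 261.4 kb. Bmp4 had 3 at 215.1 to 328.0 kb with no RNAP2 peak at its start, Jag1, a Notch ligand gene, had 3 at 131.5 to 763.9 kb, and Wnt5a, a Wnt ligand gene, had 3 at 152.9 to 264.6 kb.

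Many list genes were tied at 2 sites, and only the first of them in alphabetical order are described. Of these, Cyr61, which encodes a matricellular protein, had them at 41.1 and 53.5 kb, Dkk2, a Wnt antagonist gene, at 331.0 and 427.5 kb, Col1a2, a collagen gene, at 20.6 and 47.2 kb, and Dcn, which encodes the proteoglycan decorin, at 148.3 and 431.8 kb. Sox5, a transcription factor of cartilage, had 5 sites at 301.6 to 735.7 kb, with a highest Med12 score of 426. Sox9, the master regulator of cartilage formation, had 3 at 229.8 to 364.7 kb. Of these 20 genes, Irx3, Bmp4, Dcn and Dkk2 had no RNAP2 peak at a start. The tied genes left out, among them Fgfr2, Gli2, Hand2, Sall1, Shox2, Tbx5 and Twist1, each had one. These genes are flanking genes only, and contact with a site was not measured.

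The sites were slightly richer in G and C than intergenic sequence. The median GC content of the 500 bp at the centre of a site was 43.2%, with quartiles of 39.4 and 48.0%, compared with 41.8% in 60659 intergenic windows of the same length on chromosome 19. It was 43.0% at intragenic distal peaks with Med12, 45.0% at intergenic RNAP2 peaks without Med12 and 39.4% at intergenic Med12 peaks without RNAP2. The median number of CpG in 500 bp was 6 at sites and 3.0 in the windows.

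The homeodomain core, HOX13-type, TWIST-type E-box, TEAD and CTCF core letters were found in a larger share of sites than of windows. The MEIS letters were found in a smaller share. The motifs searched on both strands were the homeodomain core TAATTA, the HOX13-type CAATAAA, the PBX/HOX TGATTNAT, the MEIS TGACAG, the TWIST-type E-box CATCTG, the SOX AACAATG, the TEAD GGAATGT, the TCF/LEF CTTTGAT, the GLI GGGTGGTC, the AP-1 TGANTCA, the ETS CCGGAAGT and the CTCF core AGNNGGC. The last was not capitalised in the sequences above, since it stood in 51.8% of windows. No 2 of the motifs are the same letters, although matches of different motifs may overlap in a window.

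The HOX13-type letters stood at 362 sites, 24.8% (22.6 to 27.1), compared with 14.2% of the chromosome 19 windows, 14.4% (13.1 to 15.9) of intergenic RNAP2 peaks without Med12 and 19.9% (18.6 to 21.2) of intergenic Med12 peaks without RNAP2. At intragenic distal peaks with Med12 it was 21.1% (18.9 to 23.6), an interval that overlapped that of the sites. The homeodomain core stood at 336 sites, 23.0% (20.9 to 25.2), compared with 16.5%, 18.8% (17.3 to 20.3) and 19.7% (18.4 to 21.1), and it was 24.3% (21.9 to 26.8) at intragenic distal peaks with Med12. The homeodomain interval of the sites overlapped those of intergenic Med12 peaks without RNAP2 and of intragenic distal peaks with Med12. The homeodomain excess over windows was thus not particular to the sites. HOX13-type or homeodomain letters stood at 604 sites (41.3%) and in 28.2% of windows. Among sites and windows with a GC content of 39.4 to 48.0%, the HOX13-type share was 25.6% (22.6 to 28.9) of sites and 11.6% of windows, and the homeodomain share was 23.2% (20.4 to 26.4) and 13.2%.

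The TWIST-type E-box stood at 585 of 1461 sites (37.6 to 42.6%) and in 33.6% of windows, and the TEAD letters at 11.8% (10.3 to 13.6) and 6.63%. At intragenic distal peaks with Med12 the shares were 41.8% and 11.2%, so neither excess over windows was particular to the sites. They were 35.4% and 9.82% at intergenic RNAP2 peaks without Med12, and 33.2% and 7.4% at intergenic Med12 peaks without RNAP2. In the same order, the CTCF core stood at 61.5%, 64.9% and 49.7% of these sets. The CTCF core stood at 61.7% (59.2 to 64.2) of sites, or 61.5% (58.0 to 64.9) against 56.0% of windows within the same GC range. The MEIS letters were the reverse, at 23.9% (21.8 to 26.1) of sites and in 28.0% of windows. The other 6 had intervals that included the windows: PBX/HOX with 9.79% and 9.06% (within the GC range, 9.83 to 14.5% of sites and 8.01% of windows), SOX with 10.1% and 9.96%, TCF/LEF with 9.65% and 10.2%, GLI with 0.890% and 0.831%, AP-1 with 13.7% and 14.5%, and ETS with 0.479% and 0.348%.

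**Figure D5:**
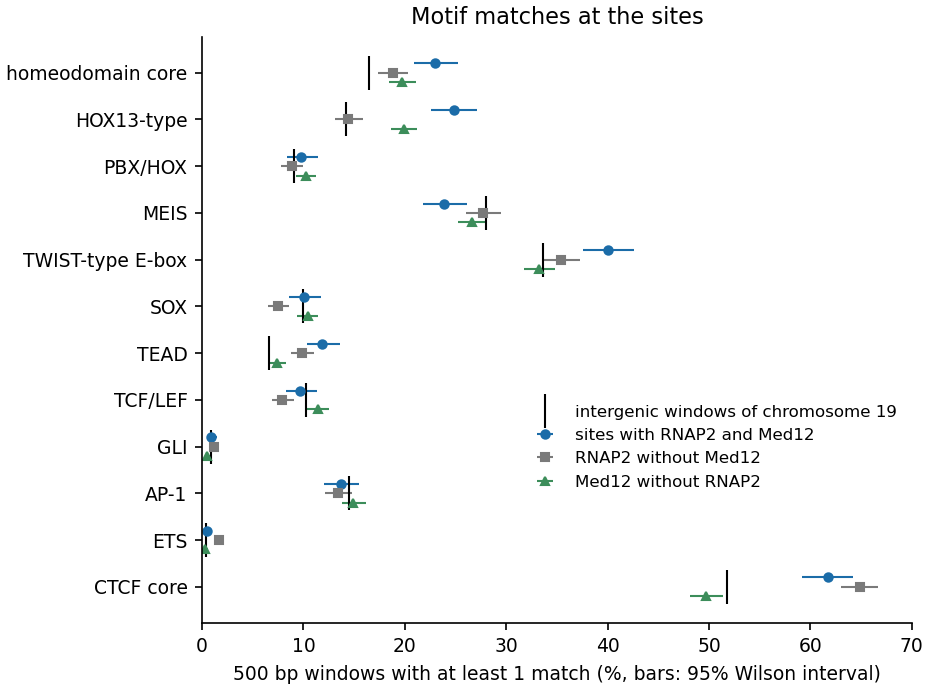
Share of 500 bp windows with at least 1 match (horizontal axis, in percent) for each of the 12 motifs, with 95% Wilson intervals, for the sites, intergenic RNAP2 peaks without Med12 and intergenic Med12 peaks without RNAP2, and, as black ticks, for the intergenic windows of chromosome 19. The HOX13-type and homeodomain shares of the sites, 24.8% and 23.0%, lie to the right of both other sets drawn and of the ticks at 14.2% and 16.5%. The homeodomain interval of the sites overlaps that of Med12 peaks without RNAP2. Intragenic distal peaks with Med12, at 21.1% and 24.3%, are not drawn.

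The share of sites with the HOX13-type letters was larger in groups with higher Med12 scores. The sites were cut into 4 groups of 365 or 366 by Med12 score. From lowest to highest, the HOX13-type share was 18.9% (15.2 to 23.2), 22.7% (18.7 to 27.3), 27.9% (23.6 to 32.8) and 29.6% (25.1 to 34.5). The homeodomain share was 19.1%, 22.5%, 26.8% and 23.6%. Between the lowest and the highest group, the TWIST-type share went from 38.8% to 41.9% and the AP-1 share from 15.3% to 12.3%. The SOX share fell from 10.4% in the lowest group to 8.77% in the next to highest and was larger again in the highest. Presence in the Med12 list also chose the sites, and no order among groups was tested. Over the same groups, from lowest to highest, the median distance to the nearest coding start was 101, 97, 104 and 128 kb. The share in deserts was 40.7%, 40.8%, 38.6% and 48.2%. Peaks were wider where scores were higher, with median RNAP2 widths of 1188, 1231, 1288 and 1462 bp. Spearman's rho of the Med12 score with the distance was 0.099 over the 1461 sites.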

How the data were processed

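ChIP-seq of RNAP2, of Med12 and of input was carried out on E12.5 distal forelimb cells, with 1 library for each. The series text names another stage, and the stage of the sample labels was used. Per the labels and the study's methods, the authors used Bowtie for mapping to mm9 after trimming of 1 base, filtered out redundant reads and took peaks from MACS 1.4.1. The deposited value of a peak is the score of this peak caller, which is −log10 of its p-value multiplied by 10. The lists reach down to a score of 40, below the score of 50 that matches the p-value limit stated in the study's methods, and 266 of the 1461 sites had a score under 50 in at least 1 list. Whether the input served as control is not given in the sources used here.

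Sites were selected with Python 3.11.15 and numpy 2.4.6, and bedtools 2.31.1 found the same 1461 sites. The rule was also tested on simulated peaks. Starts, gene spans and flanking genes came from GENCODE vM1, and sequences from the NCBIM37 (mm9) genome. Distances and 500 bp windows were taken at the centre of the overlap with the Med12 peak of highest score. For peaks found in 1 list they were taken at the centre of the peak. A flanking gene is a protein-coding gene at either edge of the intergenic interval. Wilson intervals of 95% were computed from their formula, medians with numpy, rank correlations with scipy 1.17.1 and figures with matplotlib 3.10.9. Repeated words are the 32-base words of the central 500 bp that occur more than once in mm9 on either strand.

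The text names the 10 sites with the highest score in each list, the 10 intervals with most sites and the 5 longest with a site, the 5 farthest sites, the 20 list genes with most sites and the sites next to each limit. Sites beside the Hox clusters are given as counts, apart from those between Atp5g3 and Lnp, 1 of the 10 intervals with most sites. Sequences of chromosome 18 were left out. The groups of neighbouring sites, the site-holding genes of the other lists and the 25 CpG limit were chosen after the values were seen. The rule, the members and the 8 gene lists were chosen with earlier results of these data known. Alternatives were scores of at least 50 and 100, an overlap of 50%, promoters of 5 kb, coding starts alone, no width limit, all gene spans excluded, desert lengths of 250 kb and 1 Mb, other distances and windows, genes of provisional name left out, and the nearest coding start alone. Leaving out sites with 10% or more repeated words was added after the data were seen.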

Additional observations from a re-analysis of the deposited data

How the results depend on the processing

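The 10 results were recomputed under 16 alternatives, which gave 89 values. Of these, 72 stayed within 1.5 times of a count or within the 95% counting interval of the share or median as reported. These values have no sign. The order of sites and sequence in deserts depended on the length: with 250 kb, deserts held 62.2% of sites and 61.3% of the sequence, which lies within the counting interval of the sites, with 500 kb 42.1% and 47.0%, with 1 Mb 19% and 29.9%, and without genes of provisional name 49.3% and 52.6%. With a score of at least 100 in both lists, 551 sites were counted, with a Med12 share of intergenic RNAP2 peaks of 33.5%, 9.07% of sites within about 12 kb of another, 29.8% of the limb transcription factors next to a site, a homeodomain share of 25.6%, while the median scores were 269 for RNAP2 and 176 for Med12. A limit of 50 gave medians of 158 and 111. With promoters of 5 kb the Med12 share was 38.7%. Without genes of provisional name, the median distance was 126 kb. Within 50 kb, 32.5% of sites had a neighbour. By nearest coding start alone, 31.6% of the limb transcription factors had a site. In windows of 300 bp, the homeodomain share was 14.9%. Longer deserts hold fewer sites, a larger distance more neighbours, a shorter window fewer matches and a score limit fewer sites and higher median scores by construction. For the Med12 share, the homeodomain share at the score limit and the other values, the cause was not tested.

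With 1 library for each antibody, no value has a replicate error, and leaving out a replicate was not possible. No paired analysis was possible because the libraries share only 1 replicate number and no result comes from a test. Without read counts, the depth at a site is unknown. The background of motifs came from 1 chromosome alone.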
